A study of Mus musculus with 6 samples.

Results

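The 10 genes described here encode immediate early transcription factors. They are the FOS family (*Fos*, *Fosb*, *Fosl1* and *Fosl2*), the JUN family (*Jun*, *Junb* and *Jund*), the leucine zipper factor *Atf3*, the zinc finger factor *Egr1*, and *Myc*. The genes were chosen by name, with earlier results of these data known. All 10 were found among the 17441 genes listed in any library and had a value above 0 in each of the 6 libraries.

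Immediate early genes are transcribed within minutes of a stimulus and need no new protein synthesis, because the factors that switch them on, such as SRF with its ELK partners and CREB, are already in the cell and are activated by kinases. FOS proteins pair with JUN proteins to form the dimers called AP-1, while EGR1 binds GC-rich sites and MYC, paired with MAX, drives genes of growth and ribosome synthesis. In the heart, genes of this class are known for their fast and short response to ischemia, stretch and injury. Such genes are also used by leukocytes and fibroblasts, which enter or expand in infarcted tissue.

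RNA was sequenced from heart tissue below the ligature, taken 3 days after surgery from male mice aged 12 weeks on the C57BL/6 background. Wild-type mice had a sham operation with no ligation (WT Sham) or a myocardial infarction made by tying off the left anterior descending artery (WT MI). Mice labelled as knockouts of *Card9*, an adapter of innate immune signaling, had the same infarction (Card9 KO MI, named by its label throughout, and called a pair because it holds 2 libraries). Each group has 2 libraries, and no statement in the labels says whether each came from 1 mouse, so p-values measure the spread between these libraries only. The question was how the infarcted heart differs from the sham heart and how the loss of *Card9* alters it, and no knockout sham group was analysed here.

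*Card9* itself did not follow the labels. It had 0.99 and 1.03 FPKM (fragments relative to gene length and to the mapped fragments of the library) in WT Sham and 3.39 and 5.08 in WT MI, but 9.85 and 6.94 in the pair labelled Card9 KO MI. The values of the pair labelled knockout lay above those of WT MI. Limma with Benjamini-Hochberg adjustment did not call this difference (0.85 ± 0.23 on the log2 scale, adjusted p = 0.112), and 52.7% of all genes tested lacked overlap between these groups. *Card9* was thus not lower in the pair labelled knockout, and every direction against WT MI given here rests on the labels as given. Other genes differed between these groups in both directions. At an adjusted p below 0.05, limma with Benjamini-Hochberg adjustment gave 107 genes higher and 77 lower in the pair labelled Card9 KO MI. *Lcn2*, the neutrophil protein lipocalin 2, was lower than in WT MI by limma with Benjamini-Hochberg adjustment (-4.86 ± 0.20 on the log2 scale, adjusted p = 0.000201), as were *Mmp3* and *Mmp9*, whose values are given with the target genes. *Lcn2* was named after its values were seen, and it belongs, like both proteases, to a gene panel that the study drew from these libraries. Which part of *Card9* was deleted is not given in the sources used here.

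For 7 of the 10 genes the RefSeq promoter table (build GRCm38.p6) held the 250 bases before the start of transcription, and *Fosl1*, *Egr1* and *Myc* were not matched. The windows of *Fos*, *Jun* and *Atf3* are shown, because among the 7 only these held a match to the cyclic AMP response element in a shortened or one-base-loose form, the kind of site that CREB, ATF and JUN proteins bind. Capitals mark every motif match in the 5′ to 3′ direction of the gene, and the last base is the one before the start.
Fos, chr12:85473640-85473889, plus strand: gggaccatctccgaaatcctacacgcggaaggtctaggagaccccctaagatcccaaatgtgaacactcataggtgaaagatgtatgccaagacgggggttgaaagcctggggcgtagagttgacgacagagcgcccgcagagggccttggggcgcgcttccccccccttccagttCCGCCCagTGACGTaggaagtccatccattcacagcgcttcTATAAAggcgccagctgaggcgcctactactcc
Jun, chr4:95052223-95052472, minus strand: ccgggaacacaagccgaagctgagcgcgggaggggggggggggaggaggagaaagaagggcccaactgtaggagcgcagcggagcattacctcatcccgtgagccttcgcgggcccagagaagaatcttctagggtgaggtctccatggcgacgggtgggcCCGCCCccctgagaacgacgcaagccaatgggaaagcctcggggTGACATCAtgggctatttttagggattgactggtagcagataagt
Atf3, chr1:191183334-191183583, minus strand: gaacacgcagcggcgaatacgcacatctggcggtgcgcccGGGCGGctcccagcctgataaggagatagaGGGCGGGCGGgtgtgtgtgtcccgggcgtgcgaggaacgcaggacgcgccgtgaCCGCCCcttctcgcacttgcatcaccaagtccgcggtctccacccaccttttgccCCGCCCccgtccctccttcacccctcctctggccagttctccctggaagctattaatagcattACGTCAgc

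In *Fos*, TGACGT lay at -66 to -61 from the start, next to GGGCGG on the opposite strand at -74 to -69, a box bound by SP1, and the TATA box TATAAA lay at -33 to -28. In *Jun*, a match to TGACNTCA lay at -45 to -38, with GGGCGG on the opposite strand at -89 to -84. *Atf3* held TGACGT on the opposite strand at -8 to -3 and 5 matches to GGGCGG. *Fosb* held 3 matches to GGGCGG and *Fosl2* held 1, some of them overlapping in *Fosb* and *Atf3*, whereas the windows of *Junb* and *Jund* held none of the motifs searched. None of the 7 windows held the full element TGACGTCA, the AP-1 site TGANTCA, the E-box CACGTG, the EGR site GCGTGGGCG or a CArG box of SRF, and this says only that these letters are not in these bases. Over all 32851 promoters of the table, both strands read, TGACGT was found in 6.47%, TGACNTCA in 7.49%, GGGCGG in 32.7%, TATAAA in 12.4%, TGANTCA in 6.75%, CACGTG in 6.02%, TGACGTCA in 1.55%, the CArG box in 1.47% and GCGTGGGCG in 0.536%. TGACGTCA holds TGACGT and is 1 form of TGACNTCA. TGACNTCA, TGACGT and GGGCGG were chosen after the windows had been seen, and a match is a description, not a site.

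In sham hearts *Egr1* was the most abundant of the 10 genes, at 73.7 ± 18.9 FPKM (mean ± SD, n = 2), and *Fosl1* the least, at 0.570 ± 0.014. FPKM is scaled by gene length, so that levels of different genes can be set side by side, and by estimate the libraries held about 3010000 to 4300000 fragments, with 3 (*Fosl1*) to 857 (*Egr1*) fragments per library for the 10 genes. *Jund*, the JUN gene known for steady expression, followed at 47.4 ± 3.95, then *Jun* at 32.5 ± 5.30, *Junb* at 24.2 ± 11.3 and *Fos* at 17.4 ± 7.39, and *Jun*, *Junb* and *Fos* overlapped their neighbours in this order. In WT MI the order was led by *Junb* at 58.0 ± 4.74 and *Jund* at 49.3 ± 5.45, while *Egr1* stood at 35.3 ± 8.04 and *Myc*, next to last in sham hearts, had moved up to 21.4 ± 0.0990. In the pair labelled Card9 KO MI, *Junb* at 65.1 ± 8.43 and *Jund* at 58.0 ± 1.45 again came first, *Fos* at 24.9 ± 7.54 overlapped *Fosl2* at 19.7 ± 0.255 and *Myc* at 19.1 ± 2.37, and *Fosl1* and *Fosb* were last.

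**Figure D1:**
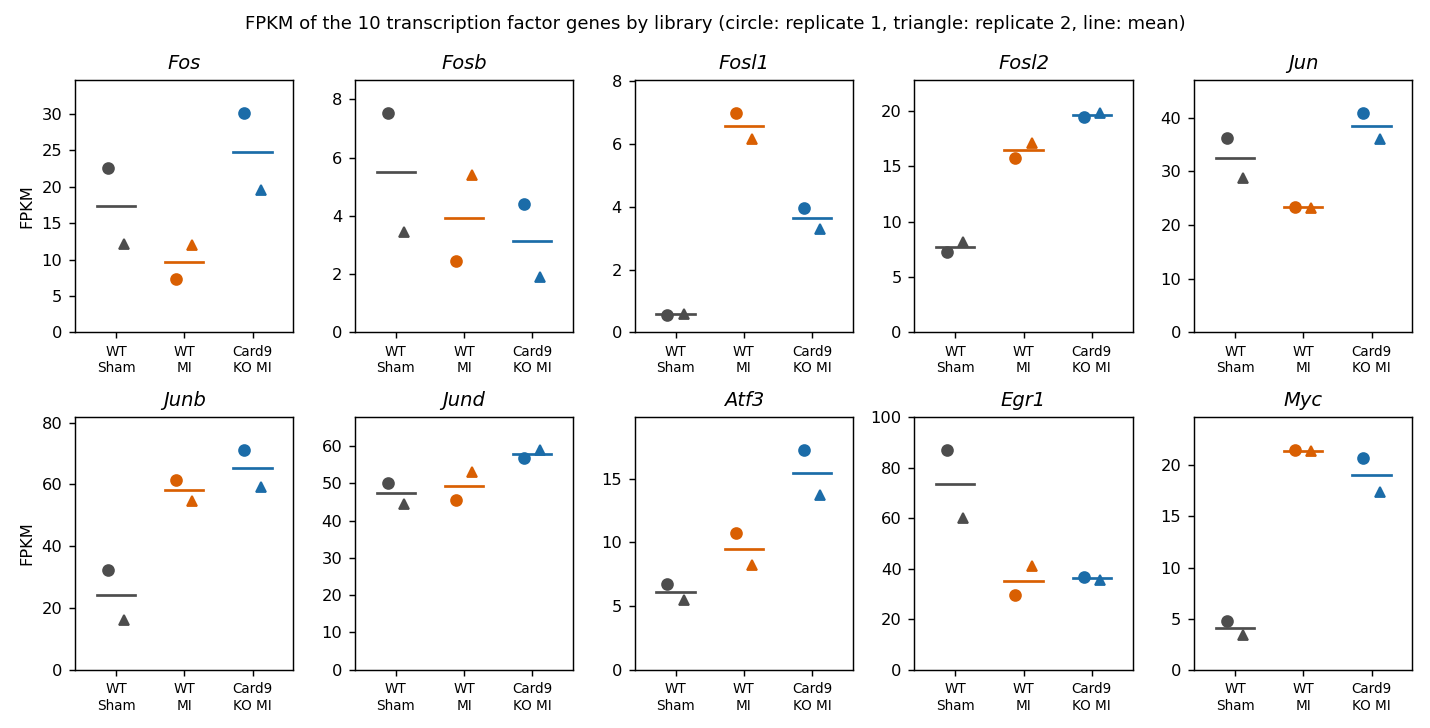
FPKM of each of the 10 genes on a linear axis, with 1 point per library (circle for replicate 1, triangle for replicate 2) and a line at the mean of the 2 libraries. *Fosl1*, *Fosl2*, *Junb* and *Myc* lie higher in both infarct groups than in WT Sham, *Egr1* lies lower, and the points of *Fos* and *Fosb* are far apart within groups.

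After infarction some of the 10 genes were higher and others lower than in sham hearts. Tested with limma on log2(FPKM + 1) across all 13120 genes that passed a filter on low values, with Benjamini-Hochberg adjustment and a threshold of 0.05, *Fosl1*, *Fosl2*, *Junb*, *Atf3* and *Myc* rose in WT MI against WT Sham, *Egr1* and *Jun* fell, and *Fos*, *Fosb* and *Jund* did not pass. All 10 genes passed the filter. Of all genes tested, 27.7% were called higher and 9.39% lower, beside 5 and 2 of the 10. The 2 groups did not overlap for 5 of the 10 genes on the higher side and 3 on the lower. Of the 13120 genes tested, 6334 and 2897 did not overlap on these sides, so the lack of overlap given for single genes is common. The median log2 fold change of the 10 genes was 0.31, beside 0.19 over all genes tested, so each change is to be read against that shift. No exact permutation test was run gene by gene, because 2 values set against 2 allow no two-sided p lower than 0.333.

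*Fosl1*, which encodes FRA1, a FOS protein without the strong activation domain of FOS, had the largest rise of the 10. Its FPKM was 0.56 and 0.58 in WT Sham and 6.99 and 6.14 in WT MI, without overlap. The ratio of the means was 11.5, and the log2 fold change was 2.27 ± 0.18 (SE, adjusted p = 0.000135), above 98.3% of all genes tested. The sham level stands for about 6 fragments over both libraries, estimated from FPKM, transcript length and depth, against 89 over both WT MI libraries, a ratio of 11.6 with an exact 95% counting interval of 5.10 to 32.3 that covers counting error only. *Fosl1* (mm9, chromosome 19, 5447703 to 5455945, plus strand, 4 exons) overlaps *Ccdc85b* on the other strand, which had 4.69 and 5.25 FPKM in WT Sham and 8.74 and 8.32 in WT MI. Whether the authors' counting used strand is not given in the sources used here, so the reads of overlapping genes cannot be told apart.

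*Fosl2*, which encodes FRA2, a relative of FRA1, moved by less but from a higher level. It had 7.27 and 8.14 FPKM in WT Sham against 15.74 and 17.12 in WT MI, and the groups stayed apart. The ratio of the means was 2.13 and the log2 fold change was 1.00 ± 0.12 (adjusted p = 0.000717). *Fosl2* lies on chromosome 5 (mm9, 32438845 to 32460204, plus strand, 4 exons) and overlaps no annotated gene.

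*Fos*, the founding member of the family, had lower values after infarction but did not pass the test. Its FPKM was 22.65 and 12.2 in WT Sham and 7.39 and 11.94 in WT MI, so that the higher WT MI library lay just under the lower sham library. The log2 fold change was -0.76 ± 0.33, with a 95% interval of -1.52 to -0.00033 and an adjusted p of 0.107. Without WT Sham replicate 2 the value was -1.18 (adjusted p = 0.0410) and without WT Sham replicate 1 it was -0.34, and upper-quartile scaling gave -0.96 (adjusted p = 0.0493) and quantile normalization -0.99 (adjusted p = 0.0457). *Fosb*, its close paralog known for lasting forms in neurons, had 7.54 and 3.46 FPKM in WT Sham and 2.46 and 5.4 in WT MI, which overlapped (log2 fold change -0.39 ± 0.43, adjusted p = 0.512). The sign for *Fosb* turned to 0.08 without WT Sham replicate 1 and to 0.05 without WT MI replicate 1. *Fos* is on chromosome 12 (mm9, 86814840 to 86818223, plus strand) and *Fosb* on chromosome 7 (19888070 to 19895394, minus strand), both with up to 4 exons and no overlapping gene.

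The spread of *Fos* and *Fosb* within groups was wide compared with other genes. In WT Sham, replicate 1 held 1.86 times the *Fos* FPKM, 2.18 times the *Fosb* FPKM, 1.99 times the *Junb* FPKM and 1.44 times the *Egr1* FPKM of replicate 2. On the log2 scale only 2.99%, 2.23%, 2.13% and 10.9% of all genes tested differed by as much between these 2 libraries. *Fos* and *Fosb* differed in the WT MI pair as well, with ratios of replicate 1 to replicate 2 of 0.619 and 0.456, and in the pair labelled Card9 KO MI, with 1.55 and 2.31. Replicate 1 had the higher FPKM for 8, 5 and 8 of the 10 genes in the WT Sham, the WT MI and the Card9 KO MI pair, beside 51.7%, 49.7% and 57.3% of all genes tested.

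Within the JUN family *Junb* rose, *Jun* fell and *Jund* was not called. *Junb*, a JUN protein that often restrains the activity of JUN, had 32.2 and 16.17 FPKM in WT Sham and 61.4 and 54.69 in WT MI, with no overlap although the sham libraries stood far apart. The ratio of the means was 2.40 and the log2 fold change 1.30 ± 0.27 (adjusted p = 0.00781). It was 1.78 without WT Sham replicate 1 and 0.83 without WT Sham replicate 2, and the call was lost without WT MI replicate 1 (adjusted p = 0.0583). *Jun*, the archetype of the family and a target of its own product, had 36.28 and 28.79 FPKM in WT Sham and 23.43 and 23.23 in WT MI. Both WT MI values lay under both sham values, at a ratio of the means of 0.717 and a log2 fold change of -0.45 ± 0.13 (adjusted p = 0.0316). The *Jun* call was lost without WT Sham replicate 1 (adjusted p = 0.157), without WT MI replicate 1 (0.118) or replicate 2 (0.120), with no filter (0.0542) and with no trend of the variance on the level (0.0651). *Jund* had 50.17 and 44.58 FPKM in WT Sham against 45.47 and 53.18 in WT MI, which overlapped, with a log2 fold change of 0.06 ± 0.11 and a 95% interval of -0.21 to 0.32. Its sign turned with upper-quartile scaling (-0.16), with quantile normalization (-0.13), with scaling without the 100 most abundant genes (-0.0925), and without WT Sham replicate 2 (-0.0283) or WT MI replicate 2 (-0.0555).

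*Junb* is a gene of 1 exon on chromosome 8 (mm9, 87500811 to 87502617, minus strand), where *Jund* also lies (73221638 to 73224515, plus strand), and *Jun* is on chromosome 4 (94715725 to 94718913, minus strand). *Jun* overlaps *BC042782* and *Jund* overlaps *Gm11175*, both on the other strand and neither matched to a value.

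*Egr1*, which is switched on by SRF and which activates genes of growth factors and coagulation, was the member with the largest fall. Its FPKM was 87.07 and 60.3 in WT Sham against 29.6 and 40.97 in WT MI, and the groups did not overlap. The ratio of the means was 0.479 and the log2 fold change -1.04 ± 0.20 (adjusted p = 0.00554), and only 1.43% of all genes tested had a lower value. *Egr1* is on chromosome 18 (mm9, 35020861 to 35024638, plus strand, up to 3 exons) and overlaps *Gm17507* on the other strand, which was not matched to a value.

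*Atf3*, a stress-induced repressor that pairs with JUN proteins, had 6.71 and 5.5 FPKM in WT Sham and 10.74 and 8.22 in WT MI. The groups did not overlap, with a ratio of the means of 1.55 and a log2 fold change of 0.56 ± 0.18 (adjusted p = 0.0467). This call was the least stable of the 7. It was lost without any 1 of the 4 libraries compared (adjusted p of 0.0606 without WT Sham replicate 1, 0.193 without WT Sham replicate 2, and for WT MI 0.246 and 0.0518 when replicate 1 or replicate 2 was left out) and with 7 of the 10 other settings, where the log2 fold change was at least 0.27. *Atf3* is on chromosome 1 (mm9, 192994175 to 193007219, minus strand, up to 5 exons) and overlaps no annotated gene.

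*Myc* had the second largest rise. Its FPKM was 4.74 and 3.43 in WT Sham and 21.49 and 21.35 in WT MI, where the libraries were nearly level. The ratio of the means was 5.24 and the log2 fold change 2.15 ± 0.16 (adjusted p = 9.89e-05), above 98.0% of all genes tested. *Myc* is on chromosome 15 (mm9, 61816946 to 61821929, plus strand, up to 3 exons) and overlaps no annotated gene.

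**Figure D2:**
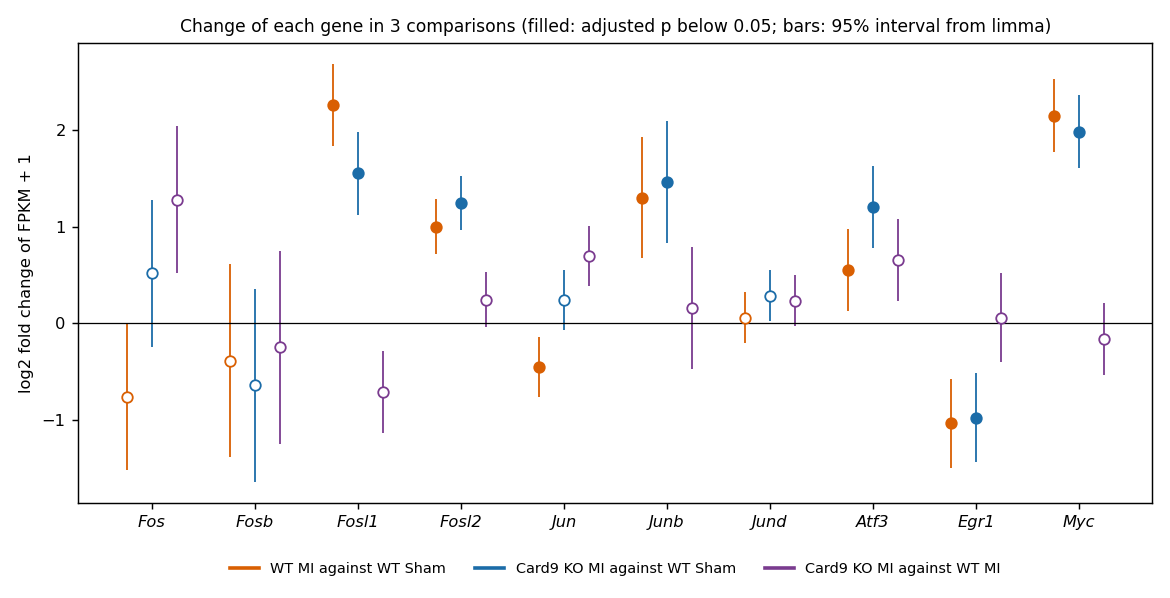
Log2 fold change of FPKM + 1 for each of the 10 genes in 3 comparisons, with 95% intervals from limma. Filled points have an adjusted p below 0.05, and none of the 10 points of Card9 KO MI against WT MI is filled, with *Fos* highest at 1.28 and *Fosl1* lowest at -0.71.

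The comparison of the pair labelled Card9 KO MI with WT MI gave no call among the 10 genes in limma, beside 1.4% of all genes tested. At an unadjusted p under 0.05 there were 4 of the 10 genes, with *Fos*, *Jun* and *Atf3* on the higher and *Fosl1* on the lower side, beside 20.0% of all genes tested. The 2 libraries of each group did not overlap for 7 of the 10 genes, 5 higher (*Fos*, *Jun*, *Atf3*, *Fosl2* and *Jund*) and 2 lower (*Fosl1* and *Myc*), beside 52.7% of all genes tested. The median log2 fold change of the 10 was 0.20 and that of all genes tested 0.04. Since this comparison and the one above share the WT MI libraries, a low value in those libraries lowers 1 difference and raises the other, and no overlap between them was taken as a result.

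*Fos* had the largest difference, with 30.19 and 19.52 FPKM in the pair labelled Card9 KO MI against 7.39 and 11.94 in WT MI. The groups did not overlap, at a ratio of the means of 2.57. The log2 fold change was 1.28 ± 0.33 (adjusted p = 0.102), above 99.3% of all genes tested, and it stayed between 0.97 and 1.59 with any 1 library left out.

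*Jun* came nearest to the threshold. Its FPKM was 40.92 and 36.06 in the pair labelled Card9 KO MI and 23.43 and 23.23 in WT MI, a ratio of the means of 1.65, and all 4 values were apart by group. The log2 fold change was 0.70 ± 0.13 (adjusted p = 0.0568), and *Jun* passed the threshold with 5 FPKM added before the log (adjusted p = 0.0475), with a filter at a mean FPKM of 5 (0.0405) and with quantile normalization (0.0437).

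*Atf3* had 17.25 and 13.69 FPKM in the pair labelled Card9 KO MI and 10.74 and 8.22 in WT MI, at a ratio of 1.63 and a log2 fold change of 0.65 ± 0.18 (adjusted p = 0.117). *Fosl1* lay on the lower side, with 3.97 and 3.28 FPKM against 6.99 and 6.14, at a ratio of 0.552 and a log2 fold change of -0.71 ± 0.18 (adjusted p = 0.103). Neither pair of groups overlapped.

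For the other 6 genes the 95% intervals of the log2 fold change held 0. *Fosl2* (19.47 and 19.83 FPKM in the pair labelled Card9 KO MI) and *Jund* (56.93 and 58.98) lay above WT MI with log2 fold changes of 0.25 (95% interval -0.04 to 0.53) and 0.23 (-0.03 to 0.50). *Myc* (20.76 and 17.41) lay under it at -0.16 (-0.54 to 0.21). *Junb* (71.09 and 59.17), *Egr1* (36.83 and 35.71) and *Fosb* (4.39 and 1.9) overlapped WT MI, with 0.16 (-0.47 to 0.79), 0.06 (-0.41 to 0.52) and -0.25 (-1.25 to 0.75). The sign for *Egr1* turned to -0.17 without WT MI replicate 1, and that for *Fosb* to 0.19 without WT MI replicate 2 and to 0.20 when Card9 KO MI replicate 2 was left out.

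Against WT Sham the pair labelled Card9 KO MI differed in both genotype and infarction, which cannot be told apart here. *Fosl1*, *Fosl2*, *Junb*, *Atf3* and *Myc* were called higher and *Egr1* lower, beside 34.8% and 14.3% of all genes tested, and the median log2 fold change was 0.86 for the 10 genes and 0.24 for all. *Myc* was 1.99 ± 0.16 higher on the log2 scale (adjusted p = 7.41e-05) at a ratio of the means of 4.67. *Fosl1* was 1.55 ± 0.18 higher (adjusted p = 0.000372) at a ratio of 6.36, which on 52 estimated fragments against 6 has a counting interval of 2.74 to 18.1.

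*Junb* stood at 1.46 ± 0.27 (adjusted p = 0.00321), *Fosl2* at 1.25 ± 0.12 (adjusted p = 0.000159) and *Atf3* at 1.21 ± 0.18 (adjusted p = 0.00121), and their ratios of the means lay between 2.53 and 2.69. *Egr1* was -0.98 ± 0.20 (adjusted p = 0.00494) at a ratio of 0.492. *Fos* (0.52 ± 0.33, adjusted p = 0.226), *Fosb* (-0.64 ± 0.43, 0.251), *Jun* (0.24 ± 0.13, 0.171) and *Jund* (0.29 ± 0.11, 0.0691) were not called, and the sign for *Jun* turned to -0.0046 with upper-quartile scaling. For *Fos*, *Fosb* and *Jun* the pair labelled Card9 KO MI overlapped the sham libraries, and for *Jund* they lay above them. The groups did not overlap for 6 of the 10 genes on the higher side and 1 on the lower. Of the 13120 genes tested, 6765 and 3220 did not overlap on these sides.

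Ratios of genes within a library do not depend on how the libraries were scaled. *Fosl1* and *Fosl2* together made 20.6% and 35.8% of the summed FPKM of the FOS family in WT Sham, 69.8% and 57.3% in WT MI, but 40.4% and 51.9% in the pair labelled Card9 KO MI. *Fos* made 59.6% and 50%, then 22.7% and 29.4%, then 52.0% and 43.8%. The share of *Fosl1* and *Fosl2* was thus lowest in the 2 sham libraries and highest in the 2 WT MI libraries, with no overlap between groups, and the share of *Fos* overlapped between WT Sham and Card9 KO MI.

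In absolute terms the family sum was 38.02 and 24.38 FPKM in WT Sham, 32.58 and 40.6 in WT MI, next to 58.02 and 44.53 in the pair labelled Card9 KO MI. The JUN family was larger in every library, at 118.65 and 89.54, then 130.3 and 131.1, then 168.94 and 154.21 FPKM. *Junb* stood at 0.888 and 0.562 times *Jun* in WT Sham, 2.62 and 2.35 times in WT MI, but 1.74 and 1.64 times in the pair labelled Card9 KO MI, so that *Jun* was the more abundant gene in WT Sham and *Junb* in both infarct groups. These shares and ratios are descriptions of the libraries and were not tested.

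**Figure D3:**
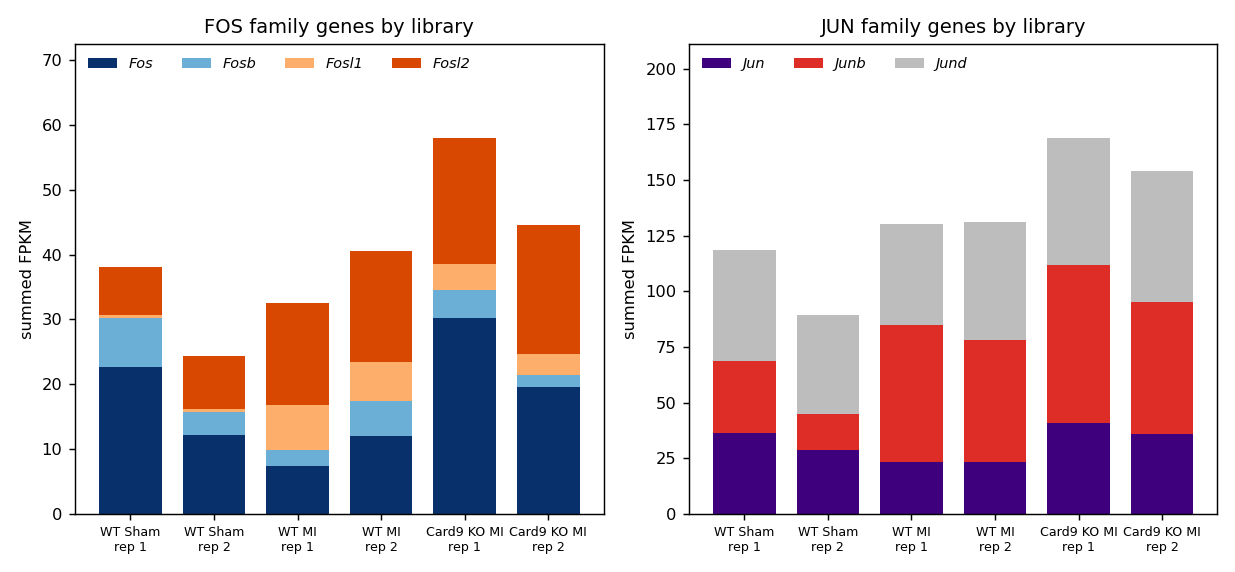
Summed FPKM of the 4 FOS family genes (left) and the 3 JUN family genes (right) in each of the 6 libraries, as stacked bars from 0. The *Fosl1* and *Fosl2* parts of the FOS bars are largest relative to the bar in the WT MI libraries, at 69.8% and 57.3%, and *Junb* takes more of the JUN bars in the infarct libraries than in WT Sham.

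The tissue itself changed with infarction. Markers of cardiomyocytes (12 genes) summed to 67152 and 68545 FPKM in WT Sham, 37950 and 39588 in WT MI, next to 31664 and 36648 in the pair labelled Card9 KO MI, and 9 of the 12 were called lower in WT MI. All 12 cardiomyocyte markers were present in every library, as is known of heart tissue. Macrophage markers (12 genes) summed to 424 and 365, then 1461 and 1854, then 2945 and 2140 FPKM, with 11 of 12 called higher in WT MI, and fibroblast markers (10 genes) to 527 and 501, then 1510 and 2038, then 3256 and 3118, with 8 of 10 called higher. Neutrophil markers (11 genes) stood at 7.64 and 5.4 for WT Sham, at 212 and 93.1 for WT MI and at 59.9 and 46.7 for the pair labelled Card9 KO MI, with *Camp*, *Elane* and *Ly6g* at 0 throughout and 6 of the 6 tested called higher in WT MI.

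In the pair labelled Card9 KO MI, set against WT MI, fibroblast markers were on the higher side for 8 of 10 genes (4 called), macrophage markers for 10 of 12 (0 called), and smooth muscle and pericyte markers for 6 of 6 (2 called), with sums of 520 and 500 against 277 and 261 FPKM. Neutrophil markers were on the lower side for 6 of 6 (0 called). The median log2 fold change of all genes tested was 0.04 in this comparison. Endothelial markers (9 genes) summed to between 379 and 456 FPKM in all 6 libraries, and lymphocyte markers (7 genes) to between 3.03 and 5.93. In bulk tissue, fewer cells of a type and less RNA per cell cannot be told apart. Several of these marker sets differed between the same groups as the 10 genes, which themselves went in different directions. The part of the marker sets in the changes of the 10 genes was not tested.

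Related genes were described by lists, which were chosen with earlier results of these data known. Their counts against WT Sham stand beside 27.7% higher and 9.39% lower of all genes tested in WT MI, and 34.8% and 14.3% in the pair labelled Card9 KO MI. Other immediate early genes made a list of 27, all of them tested. In WT MI against WT Sham 9 of them rose and 4 fell, with a median log2 fold change of 0.19, equal to that of all genes tested. The 3 largest changes were those of *Ccn2*, which encodes the matrix protein CTGF (2.65 ± 0.13, adjusted p = 2.35e-05), *Ier3*, a survival factor (2.03 ± 0.18, adjusted p = 0.000171), and *Egr2*, a paralog of *Egr1* (1.76 ± 0.19, adjusted p = 0.000388). *Ccn2* had 43.03 and 34.96 FPKM in WT Sham, 273.08 and 226.72 in WT MI, next to 291.64 and 282.26 in the pair labelled Card9 KO MI.

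*Egr2* and *Egr1* moved in opposite directions. *Egr2* had 0.63 and 0.66 FPKM in WT Sham, 4.22 and 4.93 in WT MI, next to 9.41 and 7.37 in the pair labelled Card9 KO MI. Its level per unit of *Egr1* went from 0.00724 and 0.0109 to 0.143 and 0.120 and to 0.255 and 0.206. In the sham libraries 3 fragments of a 2 kb transcript equal 0.473 and 0.498 FPKM, so the sham values of *Egr2* rest on few fragments and these ratios are coarse. The genes that fell in WT MI were the orphan receptor *Nr4a1* (-1.11 ± 0.26, adjusted p = 0.0123), the growth arrest gene *Gadd45a* (-0.77 ± 0.20, 0.0193), the MAPK phosphatase *Dusp1* (-0.61 ± 0.15, 0.0178) and *Klf4* (-0.41 ± 0.13, 0.0436). Each of these 4 calls was lost when single libraries were left out, *Nr4a1* without WT Sham replicate 2 (adjusted p = 0.0754) or WT MI replicate 2 (0.0845), *Gadd45a* without WT Sham replicate 2 (0.110) or WT MI replicate 1 (0.122), *Dusp1* without WT Sham replicate 1 (0.0892) or WT MI replicate 1 (0.109), and *Klf4* without WT Sham replicate 1 (0.204), WT MI replicate 1 (0.194) or WT MI replicate 2 (0.0919).

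None of the 27 was called in the pair labelled Card9 KO MI against WT MI, where 21 were on the higher side. The median was 0.20, the same as that of the 10 genes, beside 0.04 for all genes tested. *Egr3*, named after its values were seen, came nearest, with 5.95 and 4.65 FPKM against 1.94 and 2.35 and a log2 fold change of 1.00 ± 0.19 (adjusted p = 0.0529), and with 5 FPKM added before the log it passed (0.0475). Against WT Sham the pair labelled Card9 KO MI had 14 of the 27 higher and 3 lower, with a median of 0.50, or 7 and 4 with quantile normalization and 9 and 2 with no filter.

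**Figure D4:**
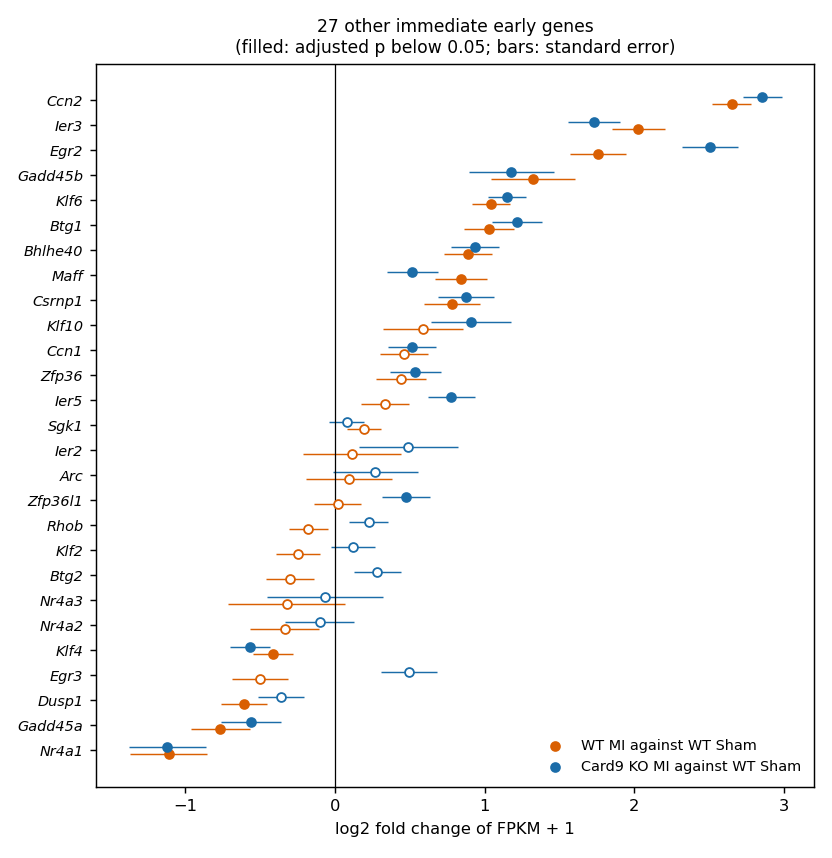
Log2 fold change of FPKM + 1 of 27 other immediate early genes for WT MI (orange) and Card9 KO MI (blue), both against the same 2 WT Sham libraries, with bars of 1 standard error and filled points for an adjusted p below 0.05. *Ccn2*, *Ier3* and *Egr2* lie farthest to the right and *Nr4a1* farthest to the left, with -1.11 for WT MI and -1.12 for Card9 KO MI.

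Of 15 leucine zipper partners of AP-1, 7 rose in WT MI and none fell (median 0.48), and in the pair labelled Card9 KO MI 8 rose against WT Sham (median 0.62). With quantile normalization 4 of the 15 were called in WT MI. *Maf*, a leucine zipper factor used by several leukocytes, had 5.47 and 4.06 FPKM in WT Sham against 17.87 and 16.6 in WT MI (1.67 ± 0.18, adjusted p = 0.000388). *Batf*, which lacks an activation domain and is used by leukocytes, was at 1.20 ± 0.34 (adjusted p = 0.0271), and this call was lost without WT Sham replicate 1 (adjusted p = 0.0847), WT MI replicate 1 (0.0765) or WT MI replicate 2 (0.137). *Maff* is on this list and on that of the 27 immediate early genes.

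Of 27 upstream kinases and transcription factors, 10 rose and 1 fell in WT MI (median 0.08). *Rps6ka1*, the kinase RSK1, had 3.59 and 2.6 FPKM in WT Sham and 7.87 and 8.82 in WT MI (1.20 ± 0.24, adjusted p = 0.00623), while its paralog *Rps6ka2* had 21.29 and 22.93 against 7.87 and 9.95 (-1.23 ± 0.15, adjusted p = 0.000648). *Mapk7*, the kinase ERK5, rose by 1.11 ± 0.16 (adjusted p = 0.00170). In the pair labelled Card9 KO MI 11 of the 27 rose and 4 fell against WT Sham, close to the shares of all genes tested.

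Of 20 genes of negative feedback, 19 were tested, and 5 rose and 2 fell in WT MI (median 0.42), or 2 and 2 with quantile normalization. *Nab2*, a corepressor that binds EGR proteins, had 5.92 and 3.57 FPKM in WT Sham, 11.94 and 10.93 in WT MI, next to 14.41 and 14.68 in the pair labelled Card9 KO MI (1.14 ± 0.20 in WT MI, adjusted p = 0.00365). *Zfp36l2*, which promotes decay of unstable mRNAs, was at 0.99 ± 0.17 (adjusted p = 0.00306). *Fbxw7*, which marks MYC and JUN proteins for degradation, was at -0.88 ± 0.15 (adjusted p = 0.00301). Against WT Sham 11 rose and 2 fell in the pair labelled Card9 KO MI (median 0.59).

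In the network of MYC and MAX, 3 of 13 tested genes rose and 3 fell in WT MI, with a median of 0.00. *Mxd3*, a MAX partner known from dividing cells, had 4.92 and 3.85 FPKM in WT Sham and 20.96 and 20.37 in WT MI (2.02 ± 0.16, adjusted p = 0.000126), and *Mxd1*, which opposes MYC, rose by 1.10 ± 0.20 (adjusted p = 0.00403). *Mycn*, the paralog of *Myc*, had 4.0 and 3.54 FPKM in WT Sham against 0.85 and 1.27 in WT MI, a change of -1.22 ± 0.23 (adjusted p = 0.00498), opposite in sign to *Myc*. Against WT Sham 4 of the network rose and 3 fell in the pair labelled Card9 KO MI.

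Of 20 genes known as MYC targets, 19 were tested, and 13 rose and 1 fell in WT MI (median 0.66), with 12 and 2 in the pair labelled Card9 KO MI against WT Sham (median 0.59). The largest changes were those of *Srm*, an enzyme of polyamine synthesis (12.98 and 8.53 FPKM in WT Sham against 33.46 and 37.89 in WT MI, 1.67 ± 0.20, adjusted p = 0.000596), and of the nucleolar genes *Nop58* (1.36 ± 0.15, adjusted p = 0.000513) and *Npm1* (1.25 ± 0.13, adjusted p = 0.000324). Between the pair labelled Card9 KO MI and WT MI none was called and the median was -0.13.

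Of 25 genes known as targets of AP-1 or EGR1, 23 were tested, and 18 rose and 2 fell in WT MI, with a median of 2.24. *Spp1*, the matrix cytokine osteopontin, had 5.6 and 3.27 FPKM in WT Sham against 434.34 and 675.76 in WT MI (6.68 ± 0.28, adjusted p = 1.22e-05). *Timp1*, an inhibitor of matrix metalloproteinases, was at 5.46 ± 0.13 (adjusted p = 9.85e-07), and the chemokine gene *Ccl2* at 4.67 ± 0.24 (adjusted p = 2.51e-05). The 2 that fell were *F3* (-0.84), which encodes tissue factor, and *Vegfa* (-0.69), and the *F3* call was lost without WT Sham replicate 1 (adjusted p = 0.0514), WT Sham replicate 2 (0.0631) or WT MI replicate 1 (0.0754). Many of these genes are also expressed by macrophages and fibroblasts, whose markers rose, and this share was not tested.

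In the pair labelled Card9 KO MI, set against WT MI, 2 of the 23 target genes were called, both lower. *Mmp3*, the protease stromelysin, had 4.12 and 3.78 FPKM against 14 and 14.37 (-1.62 ± 0.19, adjusted p = 0.0171), and *Mmp9*, a gelatinase known from neutrophils and macrophages, had 3.26 and 2.94 against 24.91 and 10.15 (-2.05 ± 0.35, adjusted p = 0.0451). As members of the panel named above, their values in these libraries are not independent evidence. By qPCR and by protein assays, the study also reports *Mmp3*, *Mmp9* and *Lcn2* lower in *Card9* knockout mice after infarction. The *Mmp3* call was lost without any 1 of the 4 libraries (adjusted p of 0.0643 to 0.166) and with no filter (0.0789), and the *Mmp9* call without WT MI replicate 1 (0.167), Card9 KO MI replicate 1 (0.172) or Card9 KO MI replicate 2 (0.106), where the log2 fold change was -1.44, -2.11 and -2.00. It was also lost with 0.1 added (0.0616), no filter (0.124), only the groups compared (0.0716), no trend (0.0974) and the replicate block (0.0557). The median of the list in this comparison was -0.01.

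By the profile over the 6 libraries, measured as the root mean square difference of centred log2(FPKM + 1) values, *Fosl1* lay nearest to *Gda* (0.131) and *Mmp19* (0.148), *Fosl2* to *Ercc6l* (0.0442) and *Abi1* (0.0568), and *Fos* to *Cabp1* (0.197) and *Pcp4* (0.218). *Jun* lay nearest to *Btg2* (0.0838), itself an immediate early gene, which had 33.34 and 24.46 FPKM in WT Sham, 24.39 and 21.72 in WT MI, next to 37.3 and 32.85 in the pair labelled Card9 KO MI. *Egr1* was nearest to *Metrn* (0.0987) and to *Aqp1* (0.113), a water channel of endothelial cells, which had 112.89 and 101.82 FPKM in WT Sham and 43.87 and 58.87 in WT MI. *Myc* was nearest to *Tfpi2* (0.10) and *Psat1* (0.106), and *Junb* to *Rad51ap1* (0.0842) and *Ampd2* (0.0981). *Atf3* was nearest to *Gnai1* (0.0654) and *Tcaf1* (0.0669), *Jund* to *Zfp266* (0.0408) and *Pla2g6* (0.0432), and *Fosb* to *2810002D19Rik* (0.176) and *Coprs* (0.224). The closest partner was thus farther away for *Fos* and *Fosb* than for the other 8 genes. Low genes, such as *Ercc6l* (0.3 and 0.31 FPKM in WT Sham), *Tfpi2* (0.42 and 0 in WT Sham) and *Pcp4* (0 in 2 libraries), have coarse profiles. Adding 1 FPKM before the log also shrinks their changes, so a small difference need not mean a like fold change. The likenesses are descriptions over libraries that share their groups.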

How the data were processed

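The sources give RNA extraction with TRIzol, selection of mRNA, Illumina sequencing, filtering of reads and mapping to mm9 with BWA and Bowtie2 (submitters' processing notes and methods, versions not given). Per library, the authors deposited FPKM values with 2 decimals, keyed by NCBI gene number. The annotation and the use of strand in counting are not given in the sources used here. Missing genes were set to 0, and 17390 of 17441 gene numbers were matched to a symbol. Positions are from the GENCODE annotation of mm9, promoters from RefSeq (GRCm38.p6).

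The steps of the lowest FPKM values gave about 3010000 to 4300000 fragments per library, so that 3 fragments of a 2 kb transcript equal 0.349 to 0.498 FPKM. Only 65.5% to 73.2% of low values came within 0.1 of a whole fragment, so no count test was run, and the fragment numbers given for *Fosl1* are rounded estimates. Replicates correlated at r of 0.980 to 0.981 across genes, which are not independent replicates.

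Groups were tested with limma 3.58.1 in R 4.3.3 (lmFit, eBayes with a trend, 3 groups in 1 fit, no covariates) on log2(FPKM + 1) of genes that reached 1 FPKM in at least 2 libraries, with Benjamini-Hochberg adjustment over 13120 genes and a threshold of 0.05, which replaces the fold change and NOIseq screen of the study's methods. A fold change on this scale understates that of low genes. On data simulated for WT MI against WT Sham, the fit recovered 99 of 100 genes changed 2-fold and 100 of 100 changed 4-fold. It also called 13 genes that had not been changed, in a simulation of 13120 genes in all. The simulation gave all genes of a level the same smoothed spread, and changed genes came only from a mean log2(FPKM + 1) above 2. It therefore says nothing about the recovery of lower genes or of genes with a wide spread, such as *Fos* and *Fosb*. Same-numbered libraries did not deviate together (correlations of -0.0083 to 0.020), so no block was used. Python 3.11.15 made the tables.

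The members and gene lists were chosen with earlier results of these data known. Named were all 10 members, *Card9*, the 3 called genes of each list with the largest changes per comparison, genes of counts of 5 or fewer, and the 2 nearest profiles of each member. A gene that this rule names is not reported here. Alternatives were other added constants, filters, scalings and variance models, a replicate block, and leaving out each library.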

Additional observations from a re-analysis of the deposited data

How the results depend on the processing

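Each member's log2 fold change was recomputed under the alternatives, with 380 values that kept direction and side of the threshold, 17 that lost the call, 6 that gained it and 11 that turned. With libraries left out singly, 4 to 7 members were called in WT MI against WT Sham, 4 without WT MI replicate 1 (*Egr1*, *Fosl1*, *Fosl2* and *Myc*). Between Card9 KO MI and WT MI, 1 member (*Jun*) was called with 5 added, with a mean FPKM of at least 5 and with quantile normalization, and 0 with each library left out. *Jund* turned in WT MI against WT Sham to -0.16 with upper-quartile scaling, -0.13 with quantile normalization and -0.0925 without the 100 most abundant genes, and ranged from -0.0555 to 0.17 with libraries left out. With libraries left out *Fosb* ranged from -0.86 to 0.0774 there and from -0.70 to 0.20 between Card9 KO MI and WT MI, where *Egr1* ranged from -0.17 to 0.28. *Jun* was -0.0046 in Card9 KO MI against WT Sham with upper-quartile scaling. The cause was not tested. *Fosl1* was not tested at a mean FPKM of at least 5, and in the other settings *Fosl1*, *Fosl2*, *Egr1* and *Myc* kept their calls against WT Sham, except *Egr1* (-0.98) in Card9 KO MI when at least a 2-fold change was also asked. With the replicate block 7, 0 and 6 members were called in the 3 comparisons, as without it, although the numbers do not pair the libraries.

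Over all genes, WT MI against WT Sham had 4869 calls, and 2883 without WT MI replicate 1. Its 3637 higher and 1232 lower calls became 2603 and 2159 with upper-quartile scaling and 2198 and 2447 with quantile normalization, where the median log2 fold change was 0.0039 and -0.09 instead of 0.19. Between Card9 KO MI and WT MI the 184 calls ranged from 8 without Card9 KO MI replicate 2 to 312 with 5 added. At about 6 fragments over both sham libraries, the depth limits the fold of *Fosl1*.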
